A study of Homo sapiens with 9 samples.

Results

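ASCL4, WSCD2 and CMKLR1 lie in 1 topologically associating domain (TAD) on the long arm of human chromosome 12, a stretch whose chromatin contacts itself more than it contacts its neighbours. The 3 genes were chosen by name, with the 40 kb bins of chr12:107000001-110000000 (hg19) around them and a core domain at chr12:108040001-108920000. They are 3 of the 29 protein-coding genes that overlap this region, and the domain holds 22 of its 75 bins, out of 77404 bins genome-wide. The study ranked this domain among those with most contact changes in these same libraries, so every difference between RIS and growing cells below is a description of the 5 libraries. A fit over all pairs of bins in the genome, given last, is not independent of that choice either. With 3 libraries against 2, an exact permutation test could in any case not give a p below 0.1.

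The libraries are in situ Hi-C, in which chromatin is cut with a restriction enzyme and joined ends mark DNA segments that were close in the nucleus. All cells were IMR90, a human lung fibroblast line, carrying the ER:HRAS(G12V) vector, which encodes an oncogenic RAS protein that acts only when 4-hydroxytamoxifen (4OHT) is present. The 3 growing libraries came from cells without 4OHT, and the 2 RIS (RAS-induced senescence) libraries from cells given 100 nM 4OHT for 6 days. Growing replicate 3 also carried the MSCV vector, so 1 of the 3 controls differs in its vectors, and no library comes from cells with 4OHT but without ER:HRAS. The libraries held between 109967509 and 180775315 contacts recovered from the deposited values. From 7.04 to 7.56% of them joined 2 chromosomes in growing cells, and 9.60 and 9.81% did in RIS cells. The labels call the libraries replicates but do not say whether they came from separate cultures.

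TAD borders are often held by CTCF, a DNA-binding protein that halts the cohesin ring as it extrudes a chromatin loop, mostly where a pair of CTCF motifs point towards each other. On a larger scale, chromosomes divide into an A compartment of active chromatin and a B compartment of inactive chromatin, each of which prefers its own kind. ASCL4 encodes a transcription factor of the achaete-scute family with a basic helix-loop-helix domain. WSCD2 encodes a protein named for its WSC domain. CMKLR1 encodes the G protein-coupled receptor for chemerin, a signal in inflammation and in fat tissue. No expression or ChIP data were analysed here, so the values below say where the genes made contact and not whether they were transcribed.

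ASCL4 (ENSG00000187855) lies at chr12:108168481-108170421 on the plus strand and fits in 1 bin. WSCD2 (ENSG00000075035) lies at chr12:108523065-108644314 on the plus strand and takes up 4 bins. CMKLR1 (ENSG00000174600) lies at chr12:108681821-108733094 on the minus strand and takes up 2 bins. Between the left border and ASCL4 are PWP1, which acts in ribosome assembly, and PRDM4, a zinc finger protein, and at the right border is FICD, an enzyme of the endoplasmic reticulum that modifies the chaperone BiP. The left border falls inside ABTB3, and the right border falls inside SART3, a splicing factor whose gene overlaps FICD.

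A search of the hg19 sequence on both strands for the CTCF core motif found 2 matches in the 22 bins of the domain, so 9.09% of its bins held a match, beside 7.03% of all 66918 autosomal bins. The left flank held no match in 26 bins, and the right flank held 10 matches in 9 of its 27 bins. The pair in the domain is shown because the bins that hold it recur in the results. Each sequence is read 5′ to 3′ on the strand of its match, with the matched bases in capitals.

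Site between ASCL4 and WSCD2: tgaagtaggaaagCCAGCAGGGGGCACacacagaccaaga

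Site beside FICD: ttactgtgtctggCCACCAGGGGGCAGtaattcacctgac

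The site between ASCL4 and WSCD2 matched on the plus strand at chr12:108384273-108384286, where no gene is annotated. The site beside FICD matched on the minus strand at chr12:108905898-108905911, in an intron of LINC01498, a noncoding gene, and 14.1 kb inside the right border. The matches therefore point towards each other. A match to these letters is no evidence of binding, and CTCF binding was not measured here. Over all autosomal bins the search found 5167 matches. The study reported many more CTCF peaks in growing and in RIS cells, so most of those peaks lack a match. The lack of a match is therefore no evidence against binding either. Further CTCF sites may lie in the domain and in the left flank, and this pair need not be the only one.

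Contact inside the domain was higher in both RIS libraries than in any growing library. Values are given as observed over expected contact, that is, the balanced value of a pair of bins divided by the mean of all pairs equally far apart on chromosome 12 in the same library. Over the 231 pairs of different bins in the domain, log2 of the mean observed over expected contact was 0.24, 0.30 and 0.25 in the growing libraries, in the order of their replicate numbers, and 0.58 and 0.61 in the RIS libraries. The groups did not overlap, and the means were 0.26 ± 0.03 (SD, n = 3) and 0.59 ± 0.02 (SD, n = 2), a 1.26-fold difference. The pairs held between 12520 and 17661 contacts per library. The number of PCR duplicates that were removed differed between libraries, and the difference was 0.31 within the libraries with few duplicates (growing replicates 1 and 2, RIS replicate 1) and 0.35 within those with many (growing replicate 3, RIS replicate 2).

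Higher contact in both RIS libraries is common genome-wide, and its size here is not. Of 61974 windows of the same length, 880 kb, on chromosomes 1 to 22, 39.1% were above every growing library in both RIS libraries, and the median difference over all windows was 0.01. A difference at least as large as that of the domain, 0.33, was found in 0.0726% of windows, or 45, and 8 of these started in the region itself. Among all windows the domain stood at the 83.5th percentile of contact in growing cells and at the 96.4th in RIS cells.

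**Figure D1:**
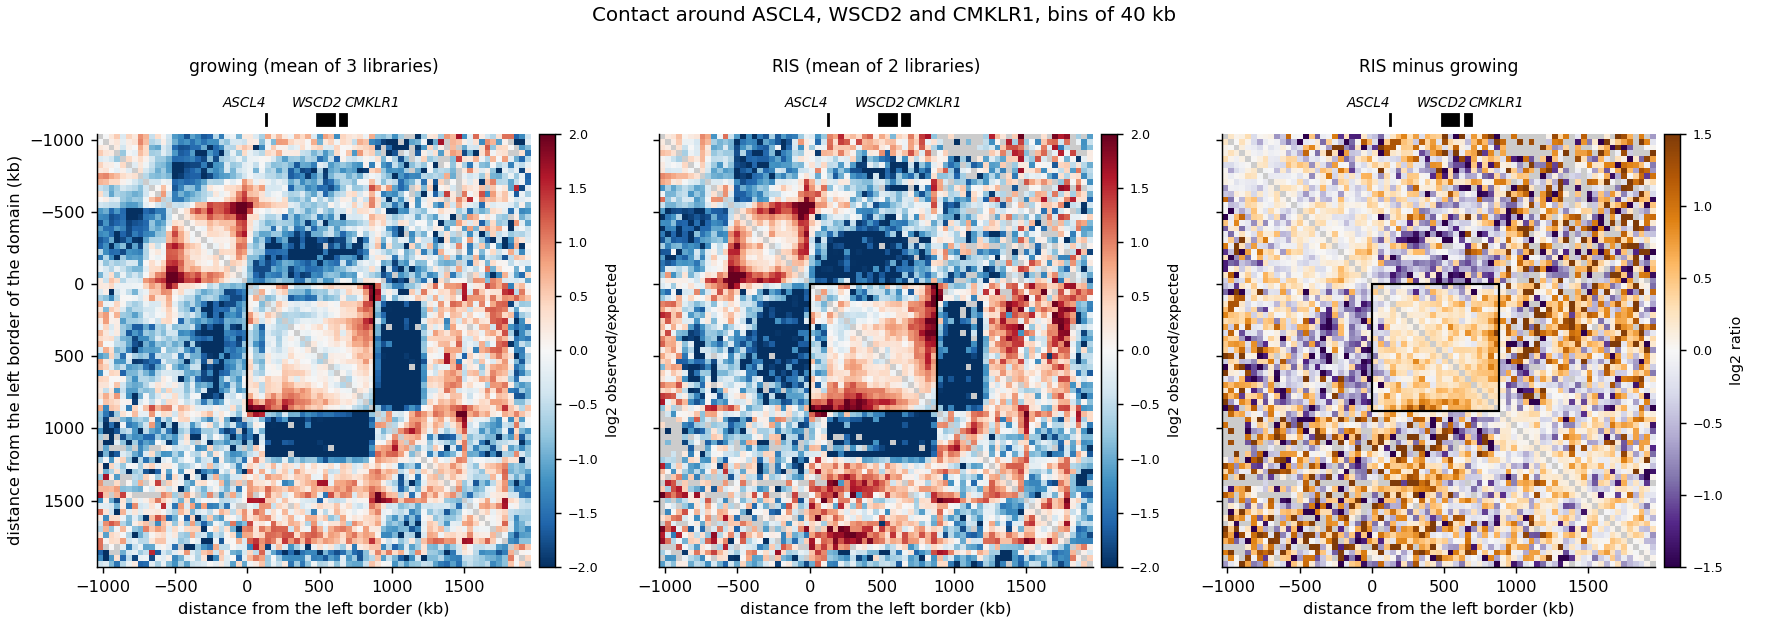
Contact maps of the region in bins of 40 kb, with both axes giving the distance in kb from the left border of the domain and the black square marking the domain. Colour gives log2 observed over expected contact in growing cells (mean of 3 libraries) and RIS cells (mean of 2 libraries), and the right map gives RIS minus growing. Gain fills most of the square from ASCL4 to its right edge, where a stripe is strongest, and the first 120 kb hold both signs; grey marks the diagonal and pairs with no contact.

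The difference grew with the distance between bins. It was 0.24 for the 95 pairs 40 to 200 kb apart, 0.35 for the 70 pairs 240 to 400 kb apart and 0.39 for the 66 pairs further apart, and the groups did not overlap in any of these classes. The longer classes hold a larger part of pairs with the right end of the domain, where the gain was strongest. Distance and place were not separated. Of the 231 pairs, 107 (46.3%) were above every growing library in both RIS libraries and 9 (3.90%) were below. Over 1356835 pairs within the length of the domain on chromosomes 1 to 22 these shares were 14.0% and 17.4%. That background was not weighted to the distances of the domain, which has more short pairs, nor to those of its parts below. With 1 library left out, which leaves fewer libraries to separate, 121 to 144 pairs were above and 14 to 31 below, the highest count below without RIS replicate 2, and the genome-wide shares were not computed again.

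Each of the 3 genes had more contact with the rest of the domain in RIS cells. For ASCL4, log2 observed over expected contact with the other 21 bins was 0.24, 0.33 and 0.25 in growing cells compared with 0.64 and 0.59 in RIS cells, a difference of 0.34 (1.27-fold). For WSCD2 it was 0.12, 0.14 and 0.08 in growing cells compared with 0.45 and 0.42 in RIS cells, a difference of 0.32 (1.25-fold). For CMKLR1 it was 0.16, 0.26 and 0.15 in growing cells compared with 0.41 and 0.45 in RIS cells, a difference of 0.24 (1.18-fold). None of the 3 genes had a RIS library within the range of the growing libraries. Of bins placed like the promoters of the region to windows of chromosome 12, 24.6% were also higher in both RIS libraries. Most of those bins lie outside their window, and 39.1% of windows as a whole were higher. No share is given for gene bodies inside other windows. The differences kept their sign for all 3 genes in either duplicate class. For CMKLR1 the difference was 0.37 when contacts before balancing were used, more than 1.5 times the value from balanced contacts. CMKLR1 and WSCD2 also differed within themselves. The single pair of the 2 bins of CMKLR1 was at -0.58, -0.53 and -0.66 in growing cells compared with -0.18 and -0.12 in RIS cells, on 168 to 264 contacts. The 6 pairs of WSCD2 bins gave -0.11, -0.04 and 0.02 in growing cells compared with 0.27 and 0.09 in RIS cells. Of single pairs of bins on chromosomes 1 to 22, 14.0% were higher in both RIS libraries.

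Contact between neighbouring members of the trio was higher in RIS cells, and contact between the outermost pair was not separated. ASCL4 with WSCD2 gave 0.12, 0.12 and 0.01 in growing cells compared with 0.55 and 0.42 in RIS cells, on 96 to 118 contacts per library. WSCD2 with CMKLR1 gave 0.12, -0.06 and 0.01 in growing cells compared with 0.35 and 0.23 in RIS cells, and its difference of 0.27 became 0.46 with contacts before balancing. Neither pair overlapped between groups. Of single pairs of bins on chromosomes 1 to 22, 14.0% were also higher in both RIS libraries, but these gene pairs average over several pairs of bins. ASCL4 with CMKLR1 gave 0.48, 0.57 and 0.41 in growing cells compared with 0.46 and 0.76 in RIS cells. It rested on only 33 to 60 contacts, the groups overlapped, and without RIS replicate 2 the difference of 0.12 turned to -0.028.

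**Figure D2:**
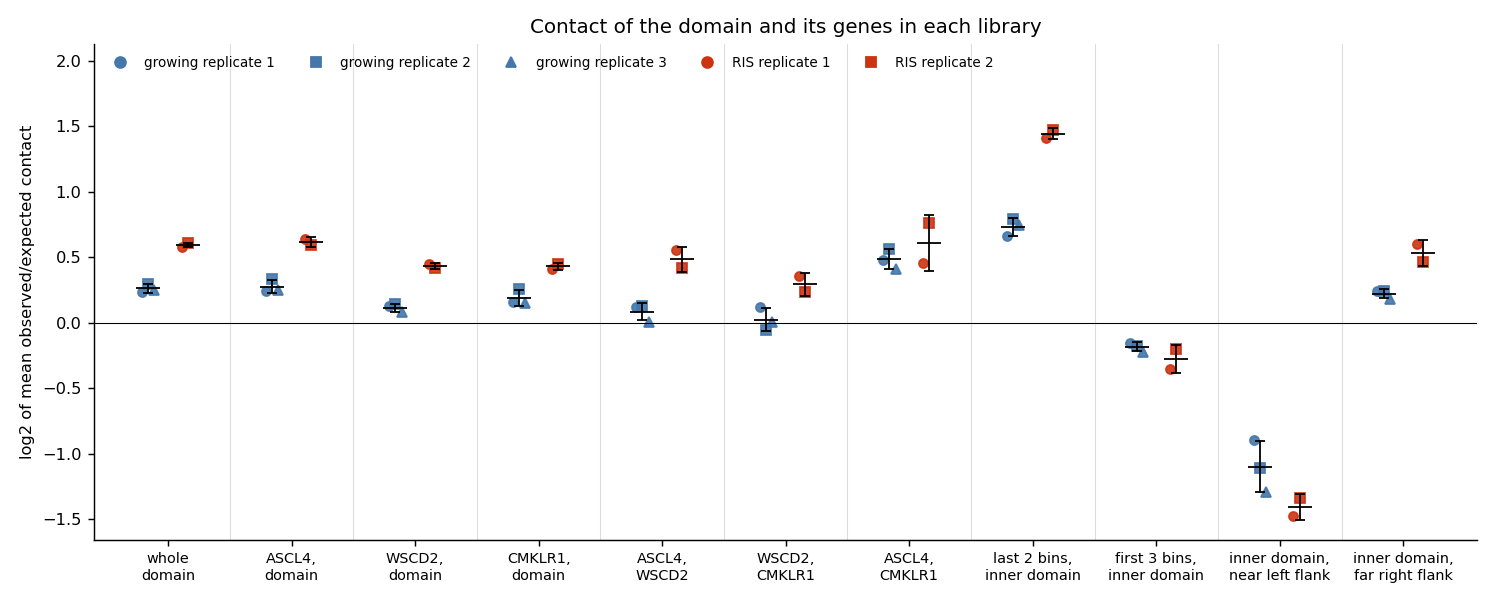
Log2 of mean observed over expected contact in each Hi-C library for the domain, each gene with the domain, the pairs of genes and parts of the region, with blue points for the 3 growing libraries, red points for the 2 RIS libraries, and black bars for group mean and SD. The last 2 bins with the inner domain show the widest gap, 0.73 against 1.44, while ASCL4 with CMKLR1 and the first 3 bins with the inner domain overlap.

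The gain was uneven, and its strongest part was a stripe that ran from the right border across the domain. The last 2 bins (chr12:108840001-108920000), which hold FICD, were set apart after the maps were seen, as were the first 3 bins (chr12:108040001-108160000), with the 17 bins between them called the inner domain. The last 2 bins with the inner domain gave 0.66, 0.79 and 0.75 in growing cells compared with 1.41 and 1.47 in RIS cells, a 1.64-fold difference on 1552 to 2455 contacts. Of the 17 inner bins, 16 had more contact with the last 2 bins in both RIS libraries than in any growing library, and none had less, with differences from 0.21 to 1.25. Among single pairs genome-wide 14.0% were higher, and the stripe was chosen for its gain, so this count is a description. The inner domain with itself gave a smaller difference, 0.30. Without the last 2 bins the difference of the whole domain fell from 0.33 to 0.22, and the groups still did not overlap.

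All 3 genes took part in the stripe. WSCD2 with the last 2 bins gave 0.45, 0.46 and 0.39 in growing cells compared with 1.14 and 1.08 in RIS cells. CMKLR1, the gene nearest to them, gave 0.08, 0.09 and 0.07 in growing cells compared with 0.63 and 0.57 in RIS cells. ASCL4, the farthest, gave 1.32, 1.51 and 1.17 in growing cells compared with 2.20 and 1.68 in RIS cells, on 53 to 71 contacts. The differences were 0.68, 0.52 and 0.61, and with the rest of the domain apart from these bins they were 0.25, 0.21 and 0.26.

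The inner bin with the largest difference in contact with the last 2 bins, 1.25, was chr12:108360001-108400000, the bin of the site between ASCL4 and WSCD2. Its pair with the bin of the site beside FICD, 520 kb away, was at 1.60, 1.78 and 1.78 observed over expected in growing cells compared with 6.28 and 3.94 in RIS cells. It held 18, 22 and 22 contacts in growing cells compared with 52 and 43 in RIS cells, with 95% Poisson intervals, which cover counting error only, of 10.7 to 28.4 for the first growing library, 13.8 to 33.3 for the others, and 38.8 to 68.2 and 31.1 to 57.9 for the RIS libraries. The interval of RIS replicate 2 overlapped those of growing replicates 2 and 3. The groups did not overlap, and the ratio of the means, 2.97, ranked 1 of the 231 pairs in the domain. This pair was singled out after its values were seen. Over 64314 pairs 520 kb apart on chromosomes 1 to 22, 0.746% had a ratio at least as high.

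The first 3 bins, with PWP1 and PRDM4, gave differences of both signs. With the inner domain they gave -0.15, -0.17 and -0.22 in growing cells compared with -0.35 and -0.20 in RIS cells, so that the groups overlapped. With the bin of ASCL4 next to them they had less contact in both RIS libraries, at -0.12, -0.26 and -0.28 against -0.47 and -0.51. They had more contact with the last 2 bins, by 0.20, at 1.57, 1.65 and 1.46 against 1.79 and 1.73, without overlap. Contact of the first bins with each other was higher by 0.14, at 0.18, 0.12 and 0.21 against 0.25 and 0.36, also without overlap. Of the 3, only the bin with the PRDM4 promoter was higher with the last 2 bins by itself, by 0.52, and with the domain as a whole it gave -0.17, -0.23 and -0.20 in growing cells compared with 0.04 in both RIS libraries. Of the 60 pairs with a first bin, 7 were higher and 8 lower in both RIS libraries, shares below the 14.0% and 17.4% over single pairs genome-wide. Of the 35 pairs of a last bin with bins outside the first 3, 28 were higher and 0 lower, and of the 136 pairs in the inner domain 72 were higher and 1 lower.

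Seen from the promoter bins, the bin with the largest ratio was not the same for the 3 genes, a difference that was not tested. Of the other 21 bins of the domain, the ASCL4 promoter bin had more contact with 11 in both RIS libraries and less with 3, the WSCD2 promoter bin more with 8 and less with 1, and the CMKLR1 promoter bin more with 11 and less with 1. Of all single pairs within the length of the domain 14.0% were higher and 17.4% lower, so the shares of lower bins were no larger than that background. The first bin of the domain was among the lower bins for ASCL4 and was the lower bin for WSCD2, and a bin of CMKLR1, chr12:108680001-108720000, was also among those lower for ASCL4. The largest ratio for the WSCD2 promoter was with chr12:108840001-108880000, where observed over expected contact was 1.61, 1.49 and 1.43 in growing cells compared with 3.48 and 2.48 in RIS cells. For CMKLR1 the largest ratio, 1.66, was with chr12:108200001-108240000, next to the ASCL4 bin, and with the last 2 bins its ratios were 1.22 and 1.23, the latter with overlap. For ASCL4 the largest ratio in the domain, 1.71, was with its last bin, chr12:108880001-108920000, on 19 to 33 contacts and with overlap. The largest without overlap, 1.62, was with chr12:108640001-108680000, the last bin of WSCD2. Of all balanced contact of the CMKLR1 promoter bin in the region, 77.3, 77.8 and 79.0% fell in the domain in growing cells compared with 83.5 and 85.8% in RIS cells. For ASCL4 the share went from a mean of 76.4% to 78.9% and for WSCD2 from 83.8% to 86.9%, also without overlap. How often this share was higher for other promoters was not computed.

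Within 40 to 400 kb of the promoter on either side, WSCD2 and CMKLR1 differed between groups by 0.31 each and ASCL4 by 0.08. These windows reach past a border of the domain, by only 1 bin for WSCD2. Both RIS libraries were above every growing library for all 3, a pattern shared by 31.7% of the 14291 promoter bins of protein-coding genes that could be measured. Over the 5 libraries in this measure, the genes elsewhere on the autosomes most like ASCL4 included RUNX3 and CALML3, with root mean square differences of 0.02 to 0.03. Those most like WSCD2 were ANAPC4, ZFP90 and ZFP2, and those most like CMKLR1 were KCTD4 and, in 1 shared bin, RNASET2 and ENSG00000249141, at 0.03 to 0.04.

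**Figure D3:**
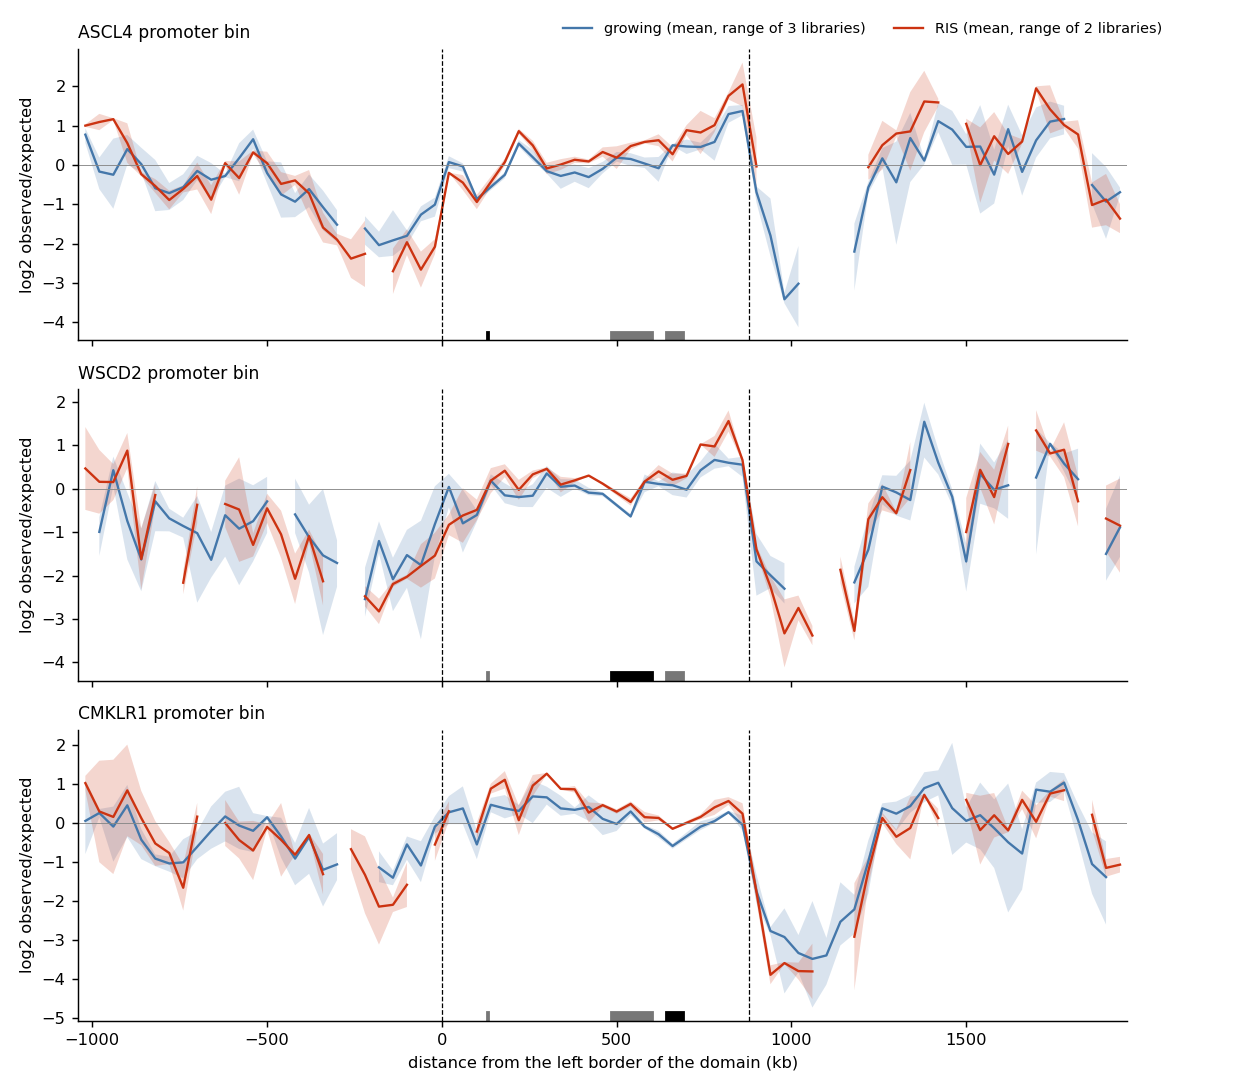
Log2 observed over expected contact (vertical axis) of the promoter bin of each gene with every bin of the region, against the distance of that bin from the left border of the domain in kb, as group mean (line) and range over libraries (band) for 3 growing and 2 RIS libraries. Dashed lines are the domain borders, black bars the gene plotted and grey bars the other genes; lines break where a library had no contact. The RIS line lies above the growing line over most of the domain in all 3 profiles, and both drop beyond the right border.

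Outside the domain, contact of the inner domain in RIS cells was lower on the near left, very low in both states on the near right and higher on both far sides. These stretches were set apart after the maps were seen. The inner domain with the 520 kb left of the border, which hold most of ABTB3, gave -0.90, -1.11 and -1.29 in growing cells compared with -1.48 and -1.34 in RIS cells. With the 320 kb right of the border it gave -2.48, -2.57 and -2.35 in growing cells and -2.32 in both RIS libraries, so that contact over the right border was far below the expected in both states. With the 760 kb beyond that it gave 0.24, 0.24 and 0.18 in growing cells compared with 0.60 and 0.46 in RIS cells. With the far left, more than 520 kb from the border, it gave -0.30, -0.27 and -0.36 in growing cells compared with -0.09 and -0.20 in RIS cells. Over the whole left flank the contact of the domain overlapped between groups, and its difference of 0.0073 turned to -0.21 when log2 values were averaged instead of contacts. Over the whole right flank the domain differed by 0.24, which fell to 0.11 in the same way.

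The genes did not share the gain with the right flank. ASCL4 with the far right flank gave 0.52, 0.31 and 0.43 in growing cells compared with 1.04 and 0.74 in RIS cells. CMKLR1 with the far right flank gave 0.23, 0.43 and 0.27 in growing cells compared with 0.16 and 0.19 in RIS cells, so that both RIS libraries were lower. For WSCD2 the groups overlapped. Over the whole right flank the CMKLR1 promoter bin gave -0.09, -0.10 and -0.14 in growing cells compared with -0.32 and -0.45 in RIS cells, on 124 to 228 contacts.

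Among the 27 protein-coding genes with a promoter in the region, 15 had a promoter bin with more contact with the domain in both RIS libraries, 1 had less and 11 overlapped. Over bins placed in the same way to every 880 kb window of the chromosome, 24.6% were higher and 28.3% lower. The 5 higher of 6 in the domain included the trio, 9 of 16 in the right flank were higher, and in the left flank 1 of 5 was higher. Several genes of the right flank share a promoter bin and so a single value. The counts are therefore of genes and not of separate measurements. FICD, next to the right border, had the largest difference, with 0.85, 0.94 and 0.87 in growing cells compared with 1.52 and 1.56 in RIS cells. KCTD10, an adaptor of a ubiquitin ligase, and UBE3B, a ubiquitin ligase, share 1 bin of the far right flank and differed by 0.56. SART3, across the right border, differed by 0.24. ABTB3, across the left border, was the only gene that was lower without overlap, at -0.58, -0.87 and -1.09 in growing cells compared with -1.34 and -1.30 in RIS cells. MTERF2, in the left flank, and PWP1, inside the left border, differed by -0.13 and -0.08 and overlapped.

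A larger share of the contacts of the domain stayed inside it in RIS cells, and a smaller share reached beyond 2 Mb. Shares here and below count a contact at each bin of the set that it joined. A contact between 2 bins of the domain thus counted 2 times, so shares inside it exceed those per contact. As a percent of all counts with other bins, before balancing, those inside the domain made up 45.0, 44.5 and 43.7% in growing cells. In RIS cells they made up 53.2 and 55.3%. Contacts with chromosome 12 beyond 2 Mb made up 30.3, 31.3 and 32.0% in growing cells compared with 21.6 and 19.9% in RIS cells. The share outside the domain within 2 Mb was 12.97% ± 0.31 (SD, n = 3) and 12.5% ± 0.75 (SD, n = 2) and overlapped. These shares rested on 47079 to 71809 such counts per library. Their 95% Wilson intervals, which cover counting error only, were at most 0.901 percentage points wide. The intervals take the counts as independent, although contacts inside the domain enter 2 times.

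The fall of 10.5 percentage points in contact beyond 2 Mb was larger than in the flanks and over all autosomal bins. The left flank went from a mean of 20.6% to 16.9% and the right flank from 24.3% to 19.0%, also without overlap. Over all autosomal bins this share was 23.8, 24.5 and 25.6% in growing cells compared with 25.7 and 23.6% in RIS cells. Of 63152 windows of 880 kb, 40.1% had a lower share in both RIS libraries than in any growing library, and 0.228% had a fall at least as large as the domain. The share of contacts with other chromosomes differed less in the domain, from 11.4% ± 0.26 (SD, n = 3) to 12.5% ± 0.40 (SD, n = 2), than over all autosomal bins, where it went from 10.01% to 13.2%. Balancing gives every bin the same total, so a loss of far contact and a gain of near contact are not independent in balanced values. With contacts before balancing, the difference inside the domain was 0.45, and the coverage relative to the median bin was higher in both RIS libraries, by 0.05 on the log2 scale for the domain and by 0.13 for its last 2 bins; the part of coverage in the contact values was not tested.

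The 3 genes followed the domain to different extents. For WSCD2, 48.7, 48.7 and 48.0% of contacts fell in the domain in growing cells compared with 61.5 and 61.0% in RIS cells, while the share beyond 2 Mb was 30.3, 31.3 and 32.0% against 19.1 and 18.3%. For CMKLR1 the share in the domain was 46.7, 45.6 and 44.1% against 55.8 and 58.7%, and that beyond 2 Mb 29.6, 31.4 and 33.1% against 21.0 and 19.2%. For ASCL4 it was 43.3, 43.0 and 41.2% against 48.7 and 50.8%, and beyond 2 Mb 29.9, 30.4 and 32.8% against 24.6 and 22.98%. No RIS library lay in the growing range in any of these 6 comparisons, and the intervals were at most 4.01 points wide for ASCL4, 2.08 for WSCD2 and 2.99 for CMKLR1. Of windows of 880 kb, 40.1% also had a lower share beyond 2 Mb in both RIS libraries. No background is given for single genes or for the share in the domain.

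**Figure D4:**
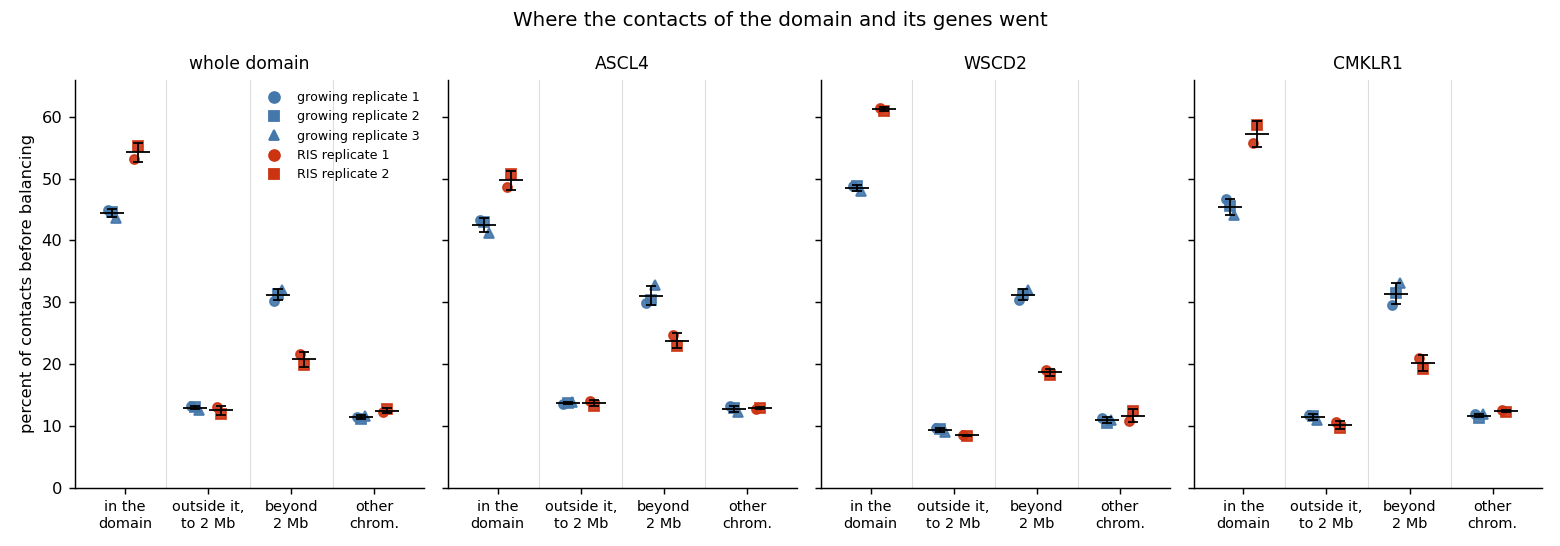
Percent of contacts before balancing that joined the bins of the domain or of each gene to 4 places, counted at each of those bins. The places are the domain itself, other bins within 2 Mb, chromosome 12 beyond 2 Mb and other chromosomes. Points are libraries (blue growing, red RIS) and black bars are group mean and SD. In every panel the share in the domain is higher and the share beyond 2 Mb lower in both RIS libraries, by 9.86 and 10.5 percentage points for the domain.

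The lower contact beyond 2 Mb was found at all distances on the chromosome and was furthest from growing cells at 20 to 50 Mb. Relative to all pairs at the same distance, contact of the domain 2 to 5 Mb away differed by -0.22, from 5 to 10 Mb by -0.31, from 10 to 20 Mb by -0.54 and beyond 50 Mb by -0.35. From 20 to 50 Mb away it was 0.55, 0.56 and 0.52 in growing cells compared with -0.39 and -0.33 in RIS cells, so that contact above the expected became contact below it. In this class CMKLR1 differed by -1.01, WSCD2 by -0.87 and ASCL4 by -0.71, without overlap. No share of other bins or windows is given for this class. For all contact beyond 2 Mb, 40.1% of windows had a lower share in both RIS libraries.

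The compartment score of the domain moved from clearly negative to near 0, while its distant contact stayed higher with B than with A bins, as given below. The score is the first principal component of the correlation matrix of chromosome 12 in 120 kb bins, scaled to a standard deviation of 1, and it is positive on the side with more genes, called A here, and negative on the other, called B. Over the domain it was -0.63, -0.64 and -0.55 in growing cells compared with -0.04 and -0.01 in RIS cells. WSCD2 went from -0.92, -0.85 and -0.80 to -0.14 and -0.08, and CMKLR1 from -0.87, -0.85 and -0.75 to -0.11 and 0.00. ASCL4 went from -0.51, -0.54 and -0.44 to -0.05 and -0.03. The 120 kb bin of ASCL4 also holds the PRDM4 promoter, and its level depends on the bin size, with means of -0.80 in growing and -0.18 in RIS cells in bins of 80 kb, and of -0.15 and 0.27 in bins of 200 kb, without overlap in either. A higher score in both RIS libraries was found in 29.0% of 1088 bins of the chromosome. The left flank was also higher, at a mean of 0.25 against 0.50, and the right flank differed by 0.07.

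Distant contact of the domain was lower in RIS cells with both compartments, and more so with B. Beyond 2 Mb, contact of the domain with the 654 bins of strongest B score was 0.95, 0.92 and 0.93 in growing cells compared with 0.03 and 0.08 in RIS cells. With the 654 bins of strongest A score it was far lower to start with, at -1.53, -1.66 and -1.41, and was -1.79 and -1.998 in RIS cells. The differences were -0.87 and -0.36, without overlap. Log2 of contact with A over B bins was -2.48, -2.58 and -2.33 in growing cells compared with -1.83 and -2.08 in RIS cells. The domain thus had far more contact with B than with A in both states. For its last 2 bins this ratio overlapped between groups, with means of -1.74 and -1.65. WSCD2 with B went from a mean of 1.01 to -0.10, CMKLR1 from 0.81 to -0.15 and ASCL4 from 0.94 to 0.10, without overlap. How often other bins or windows were also lower with A or B in both RIS libraries was not computed. With A, WSCD2 was lower by 0.47 without overlap, whereas ASCL4 and CMKLR1 overlapped, with differences of -0.30 and 0.29.

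Both borders of the domain were present in both states. The insulation score is log2 of the mean contact across a position in a window of 520 kb, relative to the chromosome, and a border is a dip of at least 0.1. A border at the left end was found in all 5 libraries and at the right end in 4, with the dip 1 bin further left in growing replicate 2. At the left border the score was -0.96, -1.04 and -1.15 in growing cells compared with -1.25 and -1.32 in RIS cells, a stronger dip in both RIS libraries. The score was lower in both RIS libraries at 32.9% of the 3217 positions of the chromosome, whether or not they were borders. At the right border the groups overlapped, at -1.29 ± 0.06 (SD, n = 3) and -1.32 ± 0.01 (SD, n = 2). A further dip lay at the left edge of the ASCL4 bin in all 5 libraries, with a depth of 0.14 to 0.19 in growing cells compared with 0.22 and 0.23 in RIS cells. There the score was -0.74, -0.81 and -0.92 in growing cells compared with -1.08 and -1.05 in RIS cells. The score was lower in both RIS libraries at each of the 3 inner positions up to this edge, overlapped at the next 3 and was higher at the other 15. Averaged over the inside of the domain it was higher in both RIS libraries, by 0.21. Of single positions of the chromosome 36.6% were also higher, but no share is given for averages over other stretches.

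**Figure D5:**
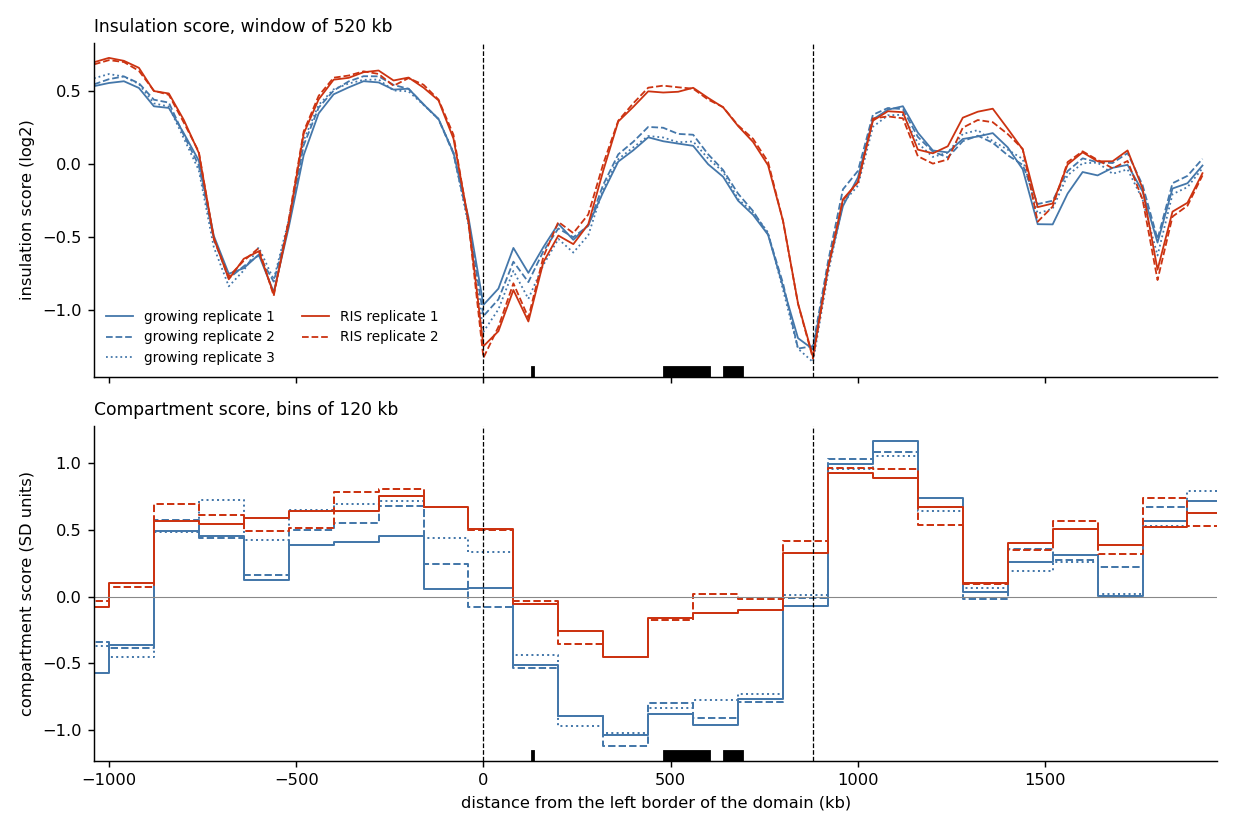
Insulation score (log2, window of 520 kb, upper panel) and compartment score (standard deviations, bins of 120 kb, lower panel) in each of the 5 libraries, against the distance from the left border of the domain in kb. Dashed lines are the domain borders and black bars are, from the left, ASCL4, WSCD2 and CMKLR1. The borders dip in all libraries. Between them the RIS insulation lines lie below the growing lines up to the left edge of ASCL4 and above them from 280 kb on, and the RIS compartment lines lie above the growing lines throughout.

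Single pairs of bins, with a median of 42 contacts per library in the domain, were also fitted genome-wide. limma on balanced values, with Benjamini-Hochberg adjustment over 1966522 pairs up to 2 Mb apart, called 1184 pairs (0.0602%) at an adjusted p under 0.05, and 0 when any growing library was left out or the replicate number was used as a block. It called 0 of the 231 pairs in the domain. Of these, 36 had an unadjusted p under 0.05, beside 199642 of the 1966522 pairs genome-wide. In the domain 193 had a positive difference, and the median was 0.28, beside -0.0014 genome-wide. The genome-wide count of positive differences is not given. limma voom on contacts before balancing called 1.49% of 1866403 pairs. In the domain it called 50 of the 225 pairs it tested (22.2%), all of them higher in RIS cells. Of these, 19 joined the last 2 bins to bins from ASCL4 on, 31 lay in the inner domain and 0 involved the first 3 bins. As the domain was chosen for such changes in these libraries, these counts add nothing to that choice. GC content was 44.3% over the domain, 46.1% over its last 2 bins and 41.0% over all autosomal bins. HindIII sites numbered 12.4, 10 and 11.7 per bin, and no spread over bins is given.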

How the data were processed

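Per the labels, in situ Hi-C libraries of growing (n = 3) and RIS (n = 2) IMR90 cells were processed by the authors with FastQC and HiC-Pro on hg19. The deposited values are signal per pair of 40 kb bins after the authors' iterative (ICE) balancing, which divides each pair by 1 factor per bin. These factors were solved from pairs between chromosomes and gave back whole contacts for 100% of values with few contacts (tolerance 0.05). The tolerance grew with the count, and at high counts any value would have passed. Capture Hi-C files were not used, as this domain was not captured. Genes were taken from GENCODE lifted to GRCh37, whose chromosome lengths equal those of the bins.

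Observed over expected contact, insulation, compartment score and shares were computed in Python 3.11.15 (numpy 2.4.6). Pairs were tested with limma 3.58.1 on log2 of the scaled value plus 0.5, with a mean of at least 5, after loess on abundance. The contact of a domain, border finding, the compartment score and the fit of pairs were tested on simulated data. The other steps had no such test. The pairs' test used n = 3 against n = 2 libraries.

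Members, lists and rules were chosen with earlier results of these data known. Named genes are the trio, those next to each border, and those whose promoter bin gained or lost most contact with the domain. Each library was left out in turn, and other averages, windows, bins, filters and a replicate block were tried. One gene of the likeness comparison is not reported here.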

Additional observations from a re-analysis of the deposited data

How the results depend on the processing

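Over 16 differences and 182 alternative settings, 152 moved by less than 1 SD of the libraries, 23 moved further with the same sign and 7 changed sign, all 7 in 3 differences whose groups overlapped. ASCL4 with CMKLR1 turned to -0.065 within the libraries with few duplicates and was 0.35 within those with many. The domain with its left flank, at 0.0073, turned to -0.21 with averaged log2 values, and the right border's insulation, at -0.04, to 0.023 within the libraries with many duplicates. With averaged log2 values the domain differed by 0.23, ASCL4 by 0.25, WSCD2 by 0.25, CMKLR1 by 0.17 and the right flank by 0.11. With contacts before balancing these were 0.45, 0.42, 0.47, 0.37 and 0.35, ASCL4 with WSCD2 differed by 0.53 and WSCD2 with CMKLR1 by 0.46. Without the last 2 bins, a choice made after seeing the data, the domain differed by 0.22, ASCL4 by 0.26 and WSCD2 by 0.25. The compartment difference of 0.58, in standard deviations of the score, was 0.49 in bins of 200 kb. As log2 of contact with A over B bins it was 0.51, which was counted as moved further although its unit is another. The share beyond 2 Mb differed by -9.23 points within the libraries with few duplicates and by -12.1 within those with many, where the share in the domain differed by 11.6.

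Leaving out 1 library gave 0.32 to 0.35 for the domain, 0.32 to 0.37 for ASCL4, 0.30 to 0.33 for WSCD2, 0.22 to 0.27 for CMKLR1, -0.028 to 0.27 for ASCL4 with CMKLR1 and -0.029 to 0.042 for the left flank. Pairs higher in both RIS libraries then numbered 121 to 144 of 231, and pairs lower 14 to 31, as fewer libraries have to be separated. limma called 0 pairs of the domain in each of these and 50 with voom on contacts before balancing. Genome-wide limma called 0 pairs without growing replicate 1, 2 or 3, with a mean of at least 1, or with the replicate block, 408 with a pseudocount of 2, 654 without RIS replicate 1 and 1485 without RIS replicate 2.

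The replicate numbers were not found to pair the libraries: deviations correlated at 0.065 for number 1 and -0.34 for number 2. The deviations of the 2 RIS libraries mirror each other, so this check cannot exclude a pairing. With the replicate block, 0 pairs of the domain were called, the domain differed by 0.33 and the left flank by -0.029, and no other difference changed sign. ASCL4 with CMKLR1 rested on the fewest contacts of the pairs of genes, and depth was not varied.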

Other observations

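Windows of 880 kb shifted by 80 to 240 kb to the right differed by 0.39 to 0.40 between RIS and growing cells, more than the 0.33 of the domain, and their contact was lower in both states. The window shifted by 80 kb still holds the last of the first 3 bins, with the PRDM4 promoter, and those shifted further leave out all 3. From a shift of 160 kb on, the bin of ASCL4 is left out too. Insulation overlapped between groups from the right border to 240 kb beyond it. A shift of 40 kb to the left gave 0.24.

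The last 2 bins had less distant contact with both compartments in RIS cells. Beyond 2 Mb, their contact with B bins went from a mean of 0.56 ± 0.11 (SD, n = 3) in growing cells to -0.59 ± 0.18 (SD, n = 2) in RIS cells, and with A bins from -1.18 ± 0.20 to -2.25 ± 0.15. Their contacts inside the domain made up a mean of 38.2% in growing and 54.1% in RIS cells, and those with other chromosomes 12.2% and 10.9%, while over all autosomal bins the latter share was higher in RIS cells.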
